A study of Mus musculus with 30 samples.

Results

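Genes for subunits of the proteasome, its activators, its inhibitor and its assembly chaperones were followed across 30 RNA-seq libraries of primary mouse microglia. The members were all genes in the deposited file whose symbol begins with Psma, Psmb, Psmc, Psmd, Psme, Psmf or Psmg and a digit, which gave 49 of 13788 genes. All 49 passed the filter on low values and were among the 13722 genes tested. One of them, Psmc3ip, matches by its symbol but encodes a factor of meiotic recombination and not a proteasome protein. Psma8, an alpha subunit known from testis, was near the low end of the file (5.71 to 22.7 over the 30 libraries), and Psme2b is a near copy of Psme2. The remaining members were split by their known roles into 31 constitutive subunits of the 20S core and the 19S cap, 5 immunoproteasome genes, and the other activators, inhibitor and chaperones.

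Both wild-type (WT) brains and brains of a knockout labelled PD-1 KO, an inhibitory receptor of immune cells, gave cultures. Microglia, the resident macrophages of the brain, were shaken off primary cultures. They were harvested untreated at 0 h, or at 2 h and 8 h with or without conditioned medium holding amyloid-beta, the peptide of Alzheimer plaques, in 10 groups of 3 libraries. The medium of the untreated cultures at 2 h and 8 h is not stated in the labels. Nor do the labels say that the 3 libraries of a group came from separate animals, so p-values measure only the spread between these libraries, which may be technical. The libraries held 4227019 to 48509985 reads, recovered from the file and over its genes only. Pdcd1, the gene of PD-1, was at the file's floor of 1 in all 15 WT libraries and at 6.02 to 25.3 in all 15 libraries labelled PD-1 KO, against the label. Directions between genotypes therefore stand for libraries as labelled, and "KO" below means that label.

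The proteasome is the large protease that cuts proteins tagged with ubiquitin. Its barrel-shaped 20S core is closed at the ends by caps, of which the 19S cap unfolds tagged proteins with its ATPases. Of the beta subunits in the core, those encoded by Psmb5, Psmb6 and Psmb7 do the cutting. After interferon signals, cells build in Psmb8, Psmb9 and Psmb10 in their place, in that order, and such an immunoproteasome cuts peptides suited to MHC class I molecules. Psme1 and Psme2 encode the PA28 alpha-beta cap, which is induced with them. In microglia these genes are known as part of the interferon response.

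Promoter windows of 5 members that the results turn on are shown here, to set genes known to answer interferon beside the constitutive partners that they replace. Each window runs from 250 bases before to 50 bases after the start of the RefSeq transcript on GRCm38.p6, 5′ to 3′ on the gene's own strand. In Psmb8 the capitals mark the core of a gamma-activated site (GAS, TTCNNNGAA). Those in Psme1 mark the core of an interferon-stimulated response element on the other strand (ISRE, GAAANNGAA). Capitals in Psmb5 and Psmb6 mark the core of an antioxidant response element (ARE, TGACNNNGC). In Psmb9 they mark instead the 28 bases that also lie in the annotated Tap1 gene, which runs the other way from position 34187553 of chromosome 17 and encodes a subunit of the peptide transporter.
Psmb8 (chr17:34197945-34198244, + strand): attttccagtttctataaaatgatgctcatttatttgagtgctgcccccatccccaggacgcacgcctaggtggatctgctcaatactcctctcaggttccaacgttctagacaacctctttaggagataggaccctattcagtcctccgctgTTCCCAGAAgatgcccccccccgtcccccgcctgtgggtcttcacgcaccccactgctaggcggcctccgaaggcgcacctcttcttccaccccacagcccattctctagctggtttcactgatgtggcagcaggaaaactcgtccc
Psmb9 (chr17:34187281-34187580, - strand): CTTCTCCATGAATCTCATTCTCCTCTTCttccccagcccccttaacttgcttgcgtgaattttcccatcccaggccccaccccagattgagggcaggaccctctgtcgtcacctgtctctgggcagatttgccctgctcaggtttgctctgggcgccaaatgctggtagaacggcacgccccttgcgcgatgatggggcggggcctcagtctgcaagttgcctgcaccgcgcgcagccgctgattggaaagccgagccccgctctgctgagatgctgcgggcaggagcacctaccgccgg
Psme1 (chr14:55578244-55578543, + strand): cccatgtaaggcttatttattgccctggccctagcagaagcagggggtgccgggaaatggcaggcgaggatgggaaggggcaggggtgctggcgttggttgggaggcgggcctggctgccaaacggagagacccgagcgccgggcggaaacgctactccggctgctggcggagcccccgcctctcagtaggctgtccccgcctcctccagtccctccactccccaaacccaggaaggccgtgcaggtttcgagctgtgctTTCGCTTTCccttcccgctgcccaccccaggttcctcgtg
Psmb5 (chr14:54617946-54618245, - strand): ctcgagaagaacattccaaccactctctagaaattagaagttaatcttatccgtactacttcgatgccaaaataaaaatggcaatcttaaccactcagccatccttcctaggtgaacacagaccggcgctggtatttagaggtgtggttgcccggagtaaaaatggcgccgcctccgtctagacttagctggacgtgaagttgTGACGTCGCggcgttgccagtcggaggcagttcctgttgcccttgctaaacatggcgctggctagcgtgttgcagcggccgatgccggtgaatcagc
Psmb6 (chr11:70525107-70525406, + strand): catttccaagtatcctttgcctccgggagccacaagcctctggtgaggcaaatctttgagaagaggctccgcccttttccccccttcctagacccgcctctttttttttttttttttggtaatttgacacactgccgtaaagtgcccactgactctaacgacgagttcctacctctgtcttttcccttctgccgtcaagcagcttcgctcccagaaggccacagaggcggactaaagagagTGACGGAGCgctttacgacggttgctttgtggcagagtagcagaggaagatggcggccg

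Motifs were searched on both strands. The ISRE core was found in 8.56% of the 32851 windows of this length in the RefSeq table, the GAS core in 8.30% and the ARE core in 12.4%. Among the 5 immunoproteasome genes, all of them matched to the table, 1 had an ISRE core (Psme1, its first base at position 11 after the start) and 1 a GAS core (Psmb8, 97 bases before the start). None of the 5 had an ARE core. Of the 31 constitutive subunits 25 were matched, and 4 had an ISRE core, 1 a GAS core and 4 an ARE core, among them Psmb5 (47 bases before the start) and Psmb6 (9 bases before). These matches describe the letters in the windows only. The window of Psmb9 held none of the 3 cores. In the GENCODE annotation of GRCm38, Psmb9 and Tap1 overlap by 212 bases on opposite strands, and the library kit does not mark strand, so a part of the reads could belong to either gene. Psmb8 (ENSMUSG00000024338.15, chr17:34197721-34201454) and Psmb10 (ENSMUSG00000031897.9, chr8:105935735-105938444) have annotated antisense genes, Gm20496 and Gm16156, with the same limit. The partner Psmb7 overlaps Nek6 by 6571 bases on the opposite strand. Pseudogenes of Psmb5, Psmb6 and Psmb7 are annotated too, so reads of these partners have a like limit. Psmb9 (ENSMUSG00000096727.3) lies at chr17:34181987-34187764, with Tap1 (to position 34197225) between it and Psmb8. Both PA28 genes lie on chromosome 14, Psme1 (ENSMUSG00000022216.17) at chr14:55578123-55581529 and Psme2 (ENSMUSG00000079197.10) at chr14:55587441-55591113.

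Levels between genes were compared as the median signal over the 30 libraries per kilobase of annotated exon. This length joins the exons of all annotated transcripts of a gene and can exceed that of the transcript present. Ranks between genes on this measure therefore depend on the annotation too. The constitutive subunits ran from 108.6 (Psmd11, of the 19S lid) to 1176 (Psmb5), with a median of 355. Psmb9 stood at 51.5 per kilobase, Psmb8 at 199 and Psmb10 at 272, so that each of these inducible subunits was below its constitutive partner: Psmb6 stood at 1156, Psmb5 at 1176 and Psmb7 at 353. Psme1 (397) and Psme2 (480) lay among the constitutive subunits. The other activators were lower, Psme3 of the nuclear PA28 gamma cap at 348 and Psme4, which encodes PA200, at 158. The inhibitor Psmf1 stood at 67.7. The 4 chaperones of 20S assembly, Psmg1 to Psmg4, ran from 41.4 to 192, and those of the 19S base, Psmd5, Psmd9 and Psmd10, from 37.8 to 228. Psma8, at 4.01, was the lowest of the members.

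**Figure D1:**
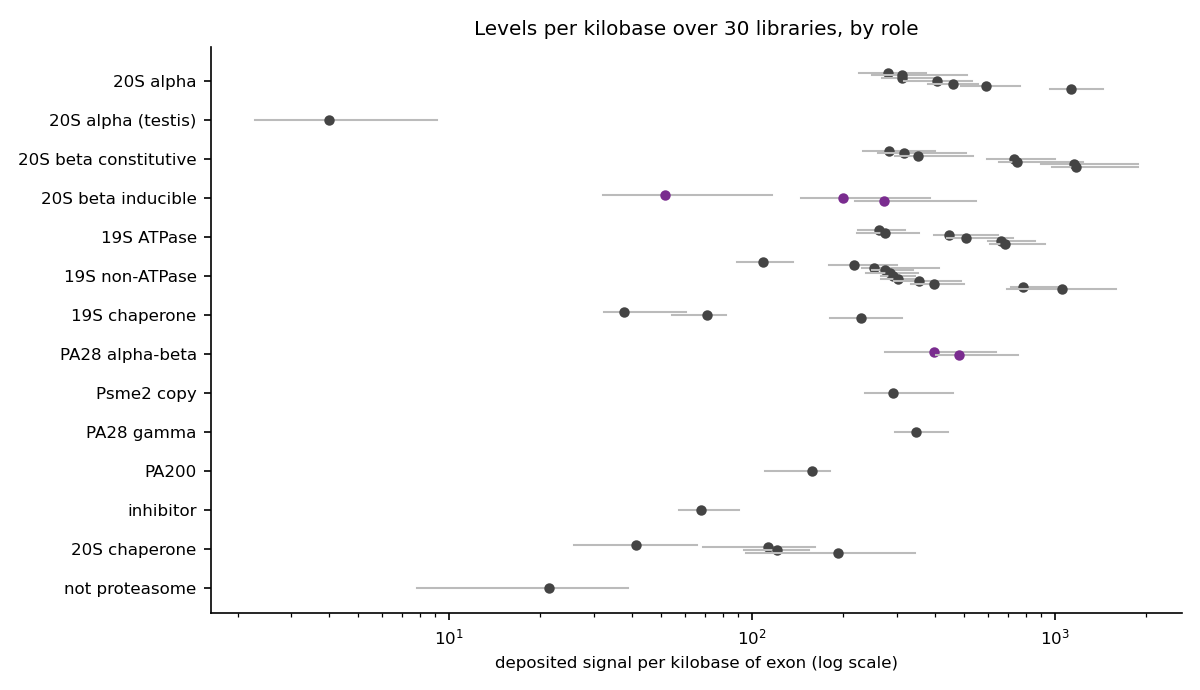
Deposited signal per kilobase of exon (log scale) for each of the 49 members, grouped by role; points are medians over 30 libraries, lines run from the lowest to the highest library, and the 5 immunoproteasome genes are purple. On this measure, which depends on the annotated exon length, Psmb9, at 51.5, is the lowest immunoproteasome gene. It lies below every constitutive 20S and 19S subunit.

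Immunoproteasome genes varied more between libraries than constitutive ones. Their coefficient of variation over the 30 libraries was 18.7% to 39.2% (median 27.5%), against 6.83% to 20.9% (median 11.4%) for the constitutive subunits and a median of 14.7% for the 9093 genes with a median signal of at least 100. Psmb9 had the highest of the 5 (39.2%), and Psmd1, a scaffold of the 19S base, the lowest of the constitutive ones (6.83%). Across the 10 group means, correlations between pairs of immunoproteasome genes were 0.87 to 0.98 (median 0.92). Between pairs of constitutive subunits they ran from -0.35 to 0.95 (median 0.60), and between the sets from -0.27 to 0.97 (median 0.69). These are descriptions over 10 groups that share libraries and scaling.

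A pair of WT libraries stood apart in these genes. WT replicate 2 at 2 h and WT replicate 1 at 2 h with amyloid-beta together held the highest value of 38 of the 49 members, and of 26 of the 31 constitutive subunits. The share of all genes with their highest value in this pair was not counted, so these counts cannot be called particular to the members. The first of the pair was the deepest library (48509985 reads), and the second held 8057104 reads. The summed signal of the constitutive subunits was 49740 and 51593 in them, against 36812 in WT replicate 1 at 2 h, the lowest WT library, and 34664 to 42136 in the KO libraries. Summed immunoproteasome values at 2 h were 3430, 5186 and 4387 in WT and 3172, 2756 and 2933 in KO, so the ranges did not overlap. Results at 2 h are given below with and without these libraries where it matters.

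**Figure D2:**
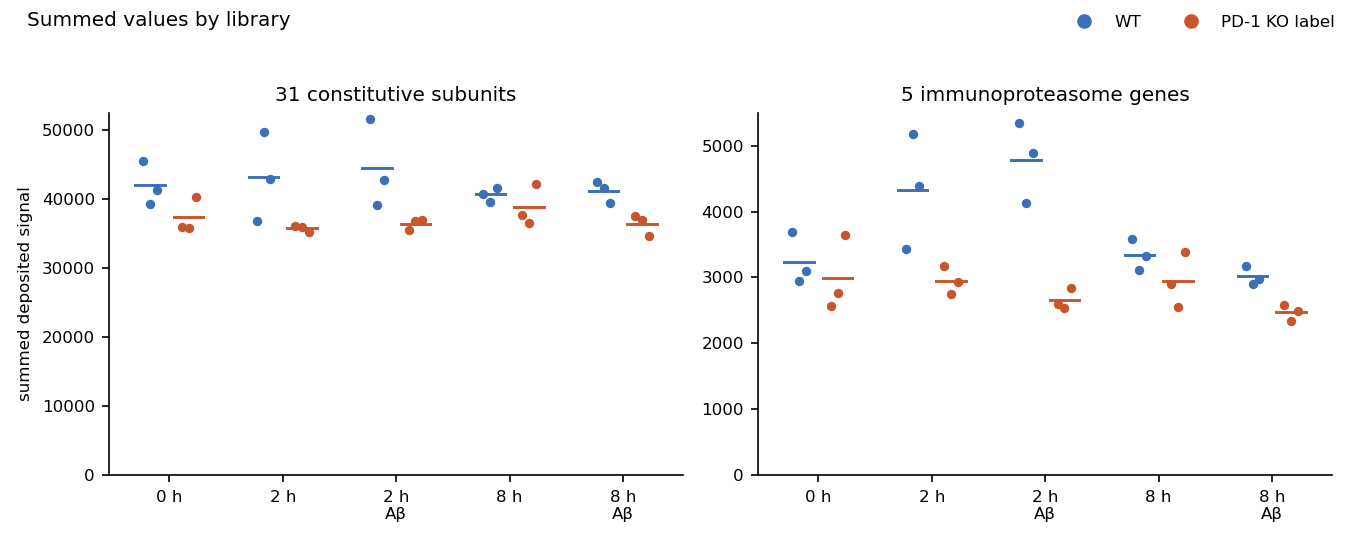
Summed deposited signal per library of the 31 constitutive subunits (left) and the 5 immunoproteasome genes (right) in the 5 conditions (Aβ, amyloid-beta medium); points are libraries and bars are means of 3. WT libraries at 2 h spread from 36812 to 49740 in the constitutive sum, while the immunoproteasome sums of WT at 2 h all lie above those of KO.

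Time in culture was compared without amyloid-beta, to ask whether the genes moved between 0 h and 2 h or 8 h. In WT, Psmb9 was at 238, 146 and 167 at 0 h and at 273, 381 and 317 at 2 h. The groups did not overlap, and Psmb9 rose by 0.83 ± 0.19 (log2 difference ± SE, adjusted p = 0.00769). It was the sole call among 49 members, where 2.59% of all genes were called higher and 2.16% lower. The other immunoproteasome genes were above 0 without passing: Psmb8 by 0.45 ± 0.16 (adjusted p = 0.104), Psmb10 by 0.41 ± 0.15, Psme2 by 0.39 ± 0.15 and Psme1 by 0.29 ± 0.12. Their median was 0.41, against 0.02 for the constitutive subunits and 0.00 for all genes tested. Psmb5, Psmb6 and Psmb7 stood at -0.01, 0.08 and 0.10. The next fits leave out 1 library. Shares of all genes called in them are not given, so their counts cannot be called particular to the members. Without WT replicate 1 at 2 h, 5 members passed, and they were the 5 immunoproteasome genes, with Psmb8 at 0.62, Psmb10 and Psme2 at 0.56 and Psme1 at 0.44. Without WT replicate 2 at 2 h or WT replicate 2 at 0 h none passed, with Psmb9 at 0.71 (adjusted p = 0.0703) and 0.68 (adjusted p = 0.0881), and without WT replicate 1 at 0 h 2 passed, Psmb9 and Psmb10.

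Genes around this system were counted from fixed lists in the same step in WT, where 2.59% of all genes were called higher and 2.16% lower. Of 8 genes of peptide supply and loading, Tap1, which lies head to head with Psmb9, rose by 0.57 ± 0.12 at 2 h in WT, and B2m, the light chain of MHC class I, by 0.45 ± 0.12. The other 6 did not pass. Of 11 interferon relays, Ifngr1, a chain of the interferon gamma receptor, rose by 0.47 ± 0.09 and the transcription factor gene Irf8 by 0.36 ± 0.10, and none fell. None of the 24 proteasome partners in the file, such as ubiquitin genes, shuttle factors and regulators, passed, which is near those shares for a list of this size.

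The same step in KO libraries gave no call among the 49 members with limma, where 0.357% of all genes were called higher and 0.277% lower. None had an unadjusted p under 0.05 and voom on the recovered reads called none. Psmb9 was at 165, 164 and 233 at 0 h and at 221, 177 and 244 at 2 h, which overlap, and the difference of 0.20 had a 95% interval of -0.18 to 0.58. For Psmb8 it was 0.06 (-0.27 to 0.38), for Psmb10 -0.06 (-0.37 to 0.24). Tested directly, the change from 0 h to 2 h did not pass as different between genotypes for any member (lowest adjusted p = 0.291, for Psmb9), where 0.343% of all genes were called in the higher and 0.394% in the lower direction. Psmb9 differed by -0.63 (-1.17 to -0.09), Psmb10 by -0.47 (-0.91 to -0.04) and Psme1 by -0.41 (-0.76 to -0.05). In that comparison 4 members had an unadjusted p under 0.05 and voom called none.

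At 8 h without amyloid-beta no immunoproteasome gene passed against 0 h in either genotype. In WT no member passed with limma (3% of all genes called higher, 3.05% lower; 1 member at an unadjusted p under 0.05; none with voom), and the 5 genes ran from -0.12 to 0.27. The highest was Psmb9, at 0.27 ± 0.19. In KO libraries 1 member was called higher, where 1.5% of all genes were called higher and 1.79% lower. That was Psmd10, also called gankyrin, a chaperone of the 19S base. It was at 319, 331 and 315 at 0 h and at 441, 458 and 451 at 8 h, so the groups were well apart, and it rose by 0.48 ± 0.11 (adjusted p = 0.00889). It did not pass in a fit of these groups alone (adjusted p = 0.0600), while quantile normalization and voom each added Psmd8 as a second call (0.33 and 0.35, adjusted p = 0.0248 and 0.0350). In WT it stood at 317, 330 and 347 against 381, 409 and 338, which overlap. The difference of the 8 h change between genotypes did not pass for any member with limma (0.0583% and 0.211% of all genes called higher and lower, 1 member at an unadjusted p under 0.05, none with voom). The libraries of 8 h carry a separate block of numbers in their titles, so the time point and any batch behind that block cannot be told apart.

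**Figure D3:**
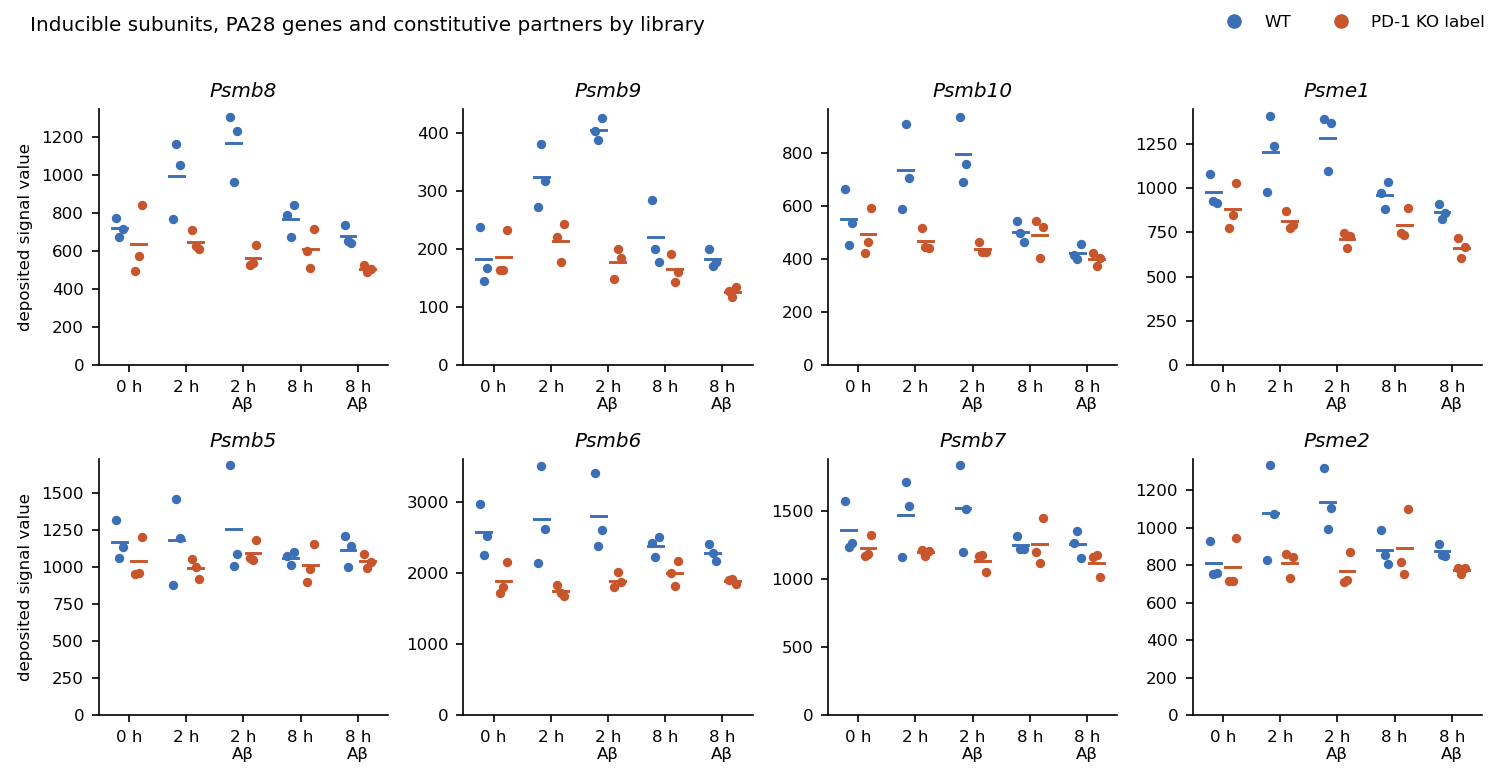
Deposited signal of the 3 inducible subunits, their constitutive partners (Psmb5, Psmb6, Psmb7) and both PA28 genes in each library, by condition; points are libraries (blue WT, orange KO label) and bars are means of 3. At 2 h with amyloid-beta the 3 WT values of Psmb9 (389 to 426) lie far above the 3 KO values (149 to 201), while Psmb5 overlaps between genotypes.

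KO libraries were compared with WT libraries in each of the 5 conditions to ask how the system differs with the labelled genotype. At 0 h none of the 5 immunoproteasome genes passed. Psmb8 was at 773, 671 and 714 in WT and at 495, 573 and 842 in KO, with KO replicate 3 the highest of the 6. The 5 differences ran from -0.21 to 0.04, and that of Psmb9 was 0.04 (95% interval -0.34 to 0.42). A pair of constitutive subunits was lower in KO, where 13.8% of all genes were called higher and 6.88% lower. Psmb6 was at 2968, 2247 and 2525 in WT and at 1716, 1806 and 2155 in KO, without overlap (-0.44 ± 0.13, adjusted p = 0.0166). Psmd8, a subunit of the 19S lid, was at 3713, 3244 and 3697 against 2119, 2472 and 2824 (-0.53 ± 0.11, adjusted p = 0.000998). Without WT replicate 1, KO replicate 1 or KO replicate 2 Psmb6 did not pass, at -0.34, -0.38 and -0.41 (adjusted p = 0.115, 0.0945 and 0.0589), which left 1 call. Without KO replicate 3, Psmb8 passed (-0.43, adjusted p = 0.0456).

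At 2 h all 5 immunoproteasome genes were lower in KO libraries. Psmb8 was at 767, 1159 and 1053 in WT and at 708, 624 and 612 in KO (-0.60 ± 0.16, adjusted p = 0.00459). Psmb10 was at 587, 906 and 706 against 516, 446 and 440 (-0.63 ± 0.15, adjusted p = 0.00188). These groups did not overlap, though the lowest WT value, replicate 1 in both, came near the highest KO value. Psmb9 differed by -0.59 ± 0.19 (adjusted p = 0.0148) and Psme1 by -0.55 ± 0.12 (adjusted p = 0.000771), both without overlap. Psme2 was at 826, 1334 and 1074 in WT and at 858, 730 and 845 in KO, which overlap (-0.39 ± 0.15, adjusted p = 0.0468). Psmb6, at -0.63 ± 0.13, was as low as the inducible genes (adjusted p = 0.000513), while Psmb5 (-0.22 ± 0.16) and Psmb7 (-0.28 ± 0.13) did not pass.

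In all, 16 members were lower at 2 h and none higher, where 13.4% of all genes were called lower and 18.8% higher. They were the 5 immunoproteasome genes, 9 of the 31 constitutive subunits, Psme2b and the 20S chaperone Psmg4. The median difference was -0.59 over the immunoproteasome genes, -0.24 over the constitutive subunits and 0.01 over all genes tested. The count of 16 rests on single libraries: it was 5 without WT replicate 2 and 31 without WT replicate 1, and 8, 9, 10 and 10 without KO replicate 3, WT replicate 3, KO replicate 1 and KO replicate 2. Shares of all genes called in these fits are not given, so the moves cannot be called particular to the members. Psmb8, Psmb10 and Psme1 passed in all 13 alternatives run. Psmb9 did not pass without WT replicate 2 (-0.47, adjusted p = 0.103) or KO replicate 2 (-0.46, adjusted p = 0.102), and Psme2 passed in 4 of 13 (adjusted p = 0.00464 to 0.346). Psmb5 (-0.42) and Psmb7 (-0.44) passed only without WT replicate 1, among these alternatives.

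The widest median gap was at 2 h with amyloid-beta. Psmb9 was at 403, 389 and 426 in WT and at 149, 201 and 185 in KO, and Psmb8 at 1302, 963 and 1231 against 525, 534 and 631. Neither overlapped, and the differences were -1.19 ± 0.19 (adjusted p = 7.91e-06) and -1.04 ± 0.16 (adjusted p = 5.96e-06). Psmb10 (935, 688 and 758 against 462, 428 and 427) differed by -0.84 ± 0.15 and Psme1 (1391, 1097 and 1366 against 748, 661 and 730) by -0.84 ± 0.12. Psme2 differed by -0.56 ± 0.15 (adjusted p = 0.00334), and its copy Psme2b by -0.85 ± 0.12, from 386, 321 and 366 in WT to 198, 199 and 197 in KO. All of these groups were apart. The annotated transcripts of Psme2 and Psme2b are 99.37% identical over 794 aligned bases, so reads between this pair could be split in either way by the authors' counting.

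Among 49 members, 16 were lower in KO with amyloid-beta at 2 h and 1 higher, where 16.7% of all genes were called lower and 22.2% higher. The lower ones held all 5 immunoproteasome genes and 10 of the 31 constitutive subunits, with medians of -0.84 and -0.23 beside 0.02 over all genes tested. Of the partners, Psmb6 (-0.55 ± 0.13, adjusted p = 0.00167) and Psmb7 (-0.40 ± 0.13, adjusted p = 0.0158) were lower and Psmb5 stood at -0.16 (95% interval -0.48 to 0.16). The count of 17 calls was 32 without WT replicate 2, 12 without WT replicate 1, 10 with voom and 9 in a fit of these groups alone. For the fits with fewer libraries the share of all genes called is not given. Psmb8, Psmb9, Psmb10 and Psme1 passed in all 13 alternatives and Psme2 in 12, missing with voom on the recovered reads (-0.36, adjusted p = 0.0501). Psmb7 passed in 8 of 13, and did not without WT replicate 1 (-0.26, adjusted p = 0.152), without KO replicate 3 (-0.35, adjusted p = 0.0612), with quantile normalization (-0.28), with voom (-0.20) or in a fit of these 2 groups alone (adjusted p = 0.0662).

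At 8 h the median gaps were nearer 0. Without amyloid-beta none of the 5 immunoproteasome genes passed, with differences from -0.40 (Psmb9, 95% interval -0.78 to -0.02) to 0.00 (Psme2, -0.30 to 0.30). The calls were 3 members lower and 1 higher, where 9.01% of all genes were called lower and 18% higher: Psmd8 (-0.33 ± 0.11), Psme3 (-0.26 ± 0.09), the alpha subunit Psma1 (-0.22 ± 0.08) and, higher, Psmc3ip. Psmb8 (-0.47) and Psme1 (-0.38) did pass without KO replicate 3, and Psmb9 (-0.54) did with quantile normalization. A single call, Psmc3ip, was left without WT replicate 3 or KO replicate 1 and 2 without KO replicate 2. With amyloid-beta Psmb9 was at 201, 171 and 178 in WT and at 128, 118 and 135 in KO, apart from each other (-0.52 ± 0.19, adjusted p = 0.0294). Psmb8 (-0.42 ± 0.16, adjusted p = 0.0423) and Psme1 (-0.38 ± 0.12, adjusted p = 0.0149) were lower too, and Psmb10 stood at -0.08 (95% interval -0.39 to 0.23). In all 10 members were lower and 1 higher, where 11.7% of all genes were called lower and 22% higher. That count of 11 was 5 without WT replicate 1 or KO replicate 2, 6 without WT replicate 2 or KO replicate 3 and 7 without KO replicate 1. Shares of all genes called in such fits are not given for either condition at 8 h. Psmb8 lost its call without any 1 of the 6 libraries (adjusted p = 0.0600 to 0.147), and with voom none of the 3 immunoproteasome genes passed (adjusted p = 0.0540 to 0.126).

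**Figure D4:**
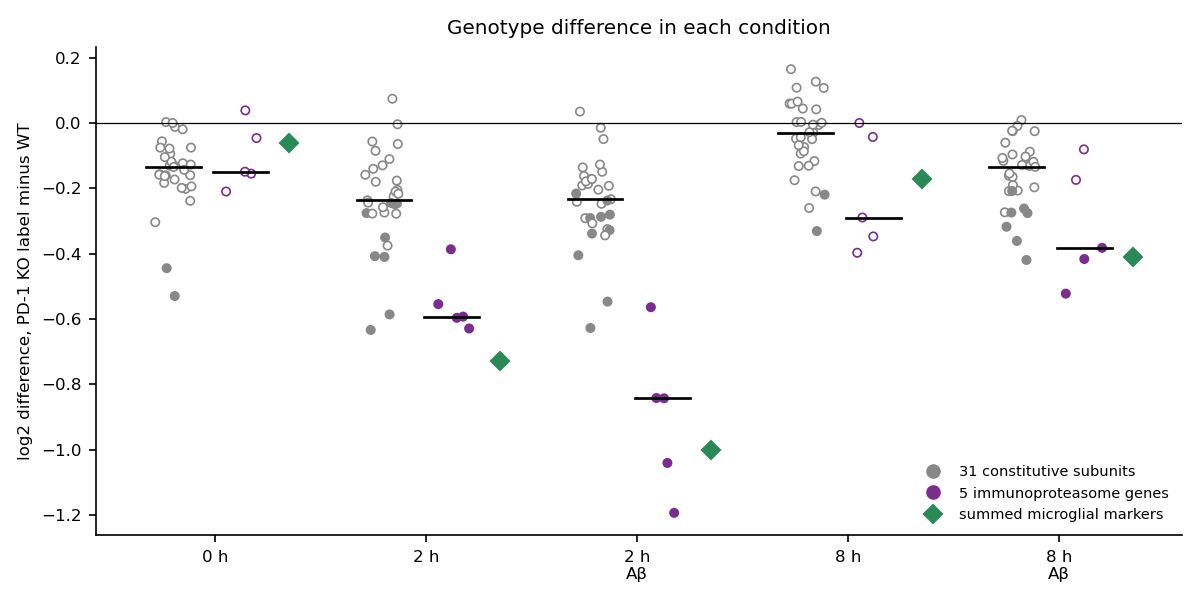
Log2 difference of KO-labelled minus WT libraries for the 31 constitutive subunits (grey) and the 5 immunoproteasome genes (purple) in each condition, with black bars at the medians and filled points for genes past the threshold; green diamonds are the summed microglial markers. The purple medians fall from -0.15 at 0 h to -0.84 at 2 h with amyloid-beta and are -0.38 at 8 h with it, and the diamonds lie at -0.06, -1.0 and -0.41.

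Over all 5 conditions, 15 libraries against 15, 30 members were lower in KO libraries and 2 higher, where 29.1% of all genes were called lower and 30.3% higher. All 5 immunoproteasome genes were lower: Psmb9 by -0.53 ± 0.08, Psmb8 by -0.52 ± 0.07, Psme1 by -0.44 ± 0.05, Psmb10 by -0.35 ± 0.07 and Psme2 by -0.23 ± 0.07 (adjusted p = 4.85e-08 to 0.00346). Of the constitutive subunits 21 of 31 were lower, 6 of 7 in the beta set, 5 of 7 in the alpha set, 4 of 6 of the 19S ATPases and 6 of 11 of the other 19S subunits. Their median was -0.14, beside -0.02 over all genes, but with quantile normalization it lay above the median of all genes (by 0.02). Psmd8 had the widest gap of the constitutive ones, from 3204 to 4843 (median 3738) in WT and from 2119 to 3307 (median 2640) in KO, which overlap little (-0.50 ± 0.05, adjusted p = 1.58e-09). It was lower in each of the 5 conditions, though at 8 h without amyloid-beta in 8 of 13 alternatives only. Psmb6 followed (-0.43 ± 0.06), and Psmb5 was the beta subunit that did not pass (-0.15 ± 0.07, adjusted p = 0.0694).

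Other roles moved less evenly over the 5 conditions. Psme3 (-0.17 ± 0.04) was lower in KO libraries, while Psme4 (95% interval -0.04 to 0.16) and Psmf1 (-0.15 to 0.03) did not pass. Of the 20S chaperones Psmg1 (-0.34 ± 0.09) and Psmg4 (-0.32 ± 0.10) were lower, and Psmg2 (-0.13 to 0.12) and Psmg3 (-0.46 to -0.01, adjusted p = 0.0661) did not pass. Psmd5, a chaperone of the 19S base, was higher by 0.11 ± 0.05 (adjusted p = 0.0464), a call that was lost in 21 of 36 alternatives, TMM factors among them (adjusted p = 0.0526). Psmc3ip, which is no proteasome gene, ran from 14.2 to 44.6 in WT and from 28.4 to 71.0 in KO, and was higher by 0.94 ± 0.15 (0.31 with quantile normalization).

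The constitutive subunits lay closer to the median of all genes than the immunoproteasome genes, and more of their calls moved with scaling. Quantile normalization moved the median of all genes in this comparison to -0.11 and voom on the recovered reads moved it to 0.11, from -0.02. At 2 h with amyloid-beta it was -0.11 and 0.22, from 0.02, and of all calls there 57.1% were higher in KO with the authors' scaling, 40.4% with quantile normalization and 81.4% with voom. Relative to the median of all genes at 2 h with amyloid-beta, the immunoproteasome median was -0.86 with the authors' scaling, -0.86 with TMM factors, -0.74 with quantile normalization and -0.85 with voom. The constitutive median was -0.25, -0.25, -0.01 and -0.25 in that order. At 2 h without it the 4 values were -0.60, -0.60, -0.48 and -0.62 for the immunoproteasome genes and -0.25, -0.25, -0.08 and -0.26 for the constitutive ones. At 8 h the constitutive median lay below that of all genes with the authors' scaling (-0.02, and -0.11 with amyloid-beta) and above it with quantile normalization (0.12 and 0.06). Constitutive subunits called lower over all 5 conditions numbered 10 with quantile normalization and 4 with voom, which called 3 higher, and immunoproteasome genes 5 and 4. The split of calls moved as well: with voom 3 members were higher and 7 lower at 2 h, the same numbers at 2 h with amyloid-beta, 2 higher and 3 lower at 8 h with it, and 7 higher and 9 lower over all 5 conditions.

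Ratios within a library do not depend on how that library was scaled, and set each inducible subunit against the one it replaces. The log2 ratio of Psmb8 to Psmb5 in WT was -0.70 ± 0.06 at 0 h, -0.24 ± 0.08 at 2 h, -0.08 ± 0.28 at 2 h with amyloid-beta, -0.47 ± 0.11 at 8 h and -0.72 ± 0.11 at 8 h with it (mean ± SD, n = 3). In KO it was -0.73 ± 0.22, -0.61 ± 0.06, -0.96 ± 0.05, -0.74 ± 0.19 and -1.03 ± 0.01 in the same order. The genotypes did not overlap at 2 h, at 2 h with amyloid-beta and at 8 h with it. In WT the ratio was higher at 2 h than at 0 h without overlap in all 3 pairs (by 0.46 for Psmb8 to Psmb5, 0.76 for Psmb9 to Psmb6 and 0.31 for Psmb10 to Psmb7), and in KO the groups overlapped in all 3. From 0 h to 8 h in WT, Psmb8 to Psmb5 was higher by 0.23 without overlap. Psmb9 to Psmb6 (0.37) and Psmb10 to Psmb7 (-0.01) overlapped there, as did all 3 pairs in KO.

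The ratio of Psmb9 to Psmb6 behaved otherwise between genotypes. At 0 h it was -3.34 ± 0.13 in KO and -3.83 ± 0.17 in WT, higher in KO without overlap, at a time when Psmb6 was lower in KO and Psmb9 was not called. At 2 h the groups overlapped (-3.03 ± 0.25 and -3.07 ± 0.12). With amyloid-beta at 2 h KO was lower, at -3.41 ± 0.15 against -2.77 ± 0.27. At 8 h the groups overlapped, and at 8 h with amyloid-beta KO was lower without overlap (-3.89 ± 0.12 against -3.64 ± 0.08). For Psmb10 to Psmb7 the genotypes were apart at 2 h (-1.36 ± 0.12 in KO, -1.01 ± 0.10 in WT) and at 2 h with amyloid-beta (-1.36 ± 0.08 and -0.93 ± 0.11), and overlapped in the other 3 conditions. No test was run on these ratios, and how many other gene pairs do not overlap was not counted. Their separations therefore cannot be called particular to the members.

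**Figure D5:**
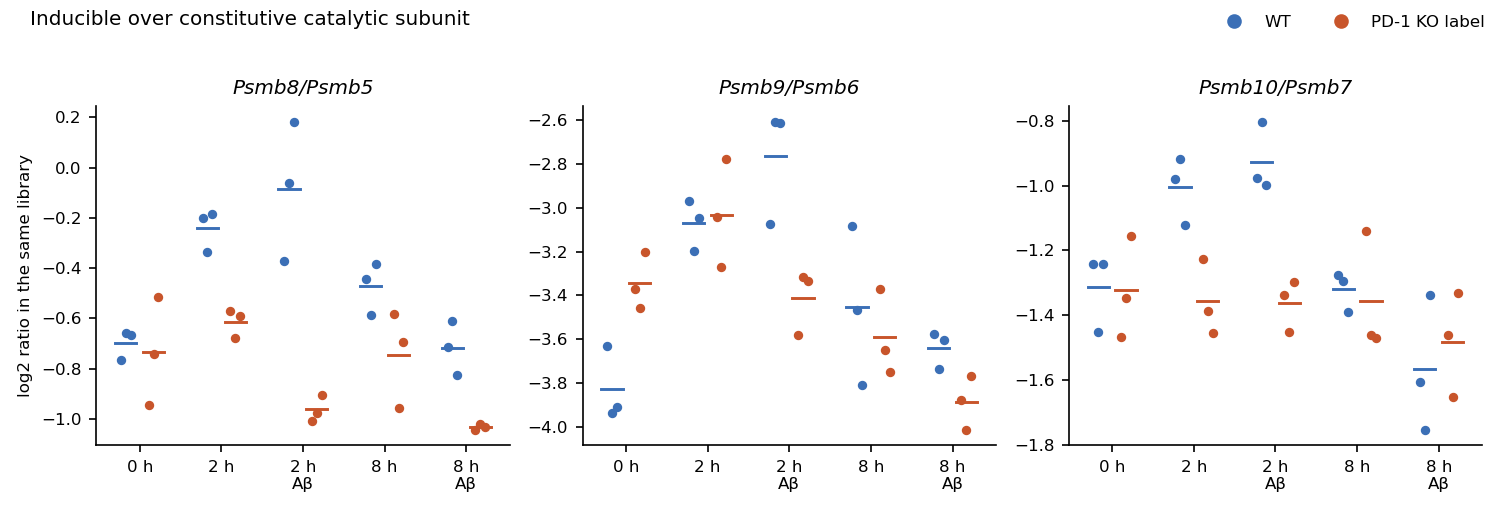
Log2 ratio of each inducible subunit to its constitutive partner in the same library, by condition; points are libraries and bars are means of 3. In the left panel KO libraries at 2 h with amyloid-beta average -0.96 and WT libraries -0.08, and in the middle panel KO lies above WT at 0 h (-3.34 and -3.83).

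Amyloid-beta medium was compared with none within each genotype and time. No member passed with limma in any of the 4 comparisons. At 2 h no gene at all was called in either genotype (0% of all genes higher and 0% lower in WT, 0% and 0% in KO), with 681 and 615 of the 13722 genes at an unadjusted p under 0.05. The shares of all genes called at 8 h were 0.131% higher and 2.05% lower in WT, and 0% higher and 0.0583% lower in KO. Members at an unadjusted p under 0.05 numbered 3 and 1 at 2 h and 2 and 5 at 8 h, in WT and KO, and voom called none of them. The immunoproteasome genes lay above 0 in WT at 2 h, from 0.10 to 0.34, and below 0 in KO at 2 h (-0.26 to -0.08), in WT at 8 h (-0.25 to -0.01) and in KO at 8 h (-0.37 to -0.18). For Psmb9 at 2 h, the 95% interval of the amyloid-beta difference was -0.04 to 0.72 in WT and -0.64 to 0.12 in KO. Some partner ratios, which were not tested, were lower with amyloid-beta without overlap. For Psmb8 to Psmb5 this held in KO at 2 h (-0.35), in WT at 8 h (-0.25) and in KO at 8 h (-0.29). For Psmb9 to Psmb6 it held in KO at 2 h (-0.38) and at 8 h (-0.30). The other ratios overlapped, among them all those of Psmb10 to Psmb7. How many other gene pairs do not overlap was not counted, so these separations cannot be called particular to the members.

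The difference of the amyloid-beta effect between genotypes was tested too. At 2 h no member passed with limma (2 at an unadjusted p under 0.05, none with voom), where 0% of all genes were called higher and 0.051% lower. Psmb9 differed by -0.60 (95% interval -1.14 to -0.06) and Psmb8 by -0.44 (-0.90 to 0.02), both with an adjusted p of 0.996. Irf7, a transcription factor gene of the interferon response, did pass: it differed by -2.24 ± 0.35 (adjusted p = 0.00537), from 171 ± 17.4 to 403 ± 39.8 in WT and from 101.4 ± 29.1 to 49.0 ± 9.39 in KO (n = 3). At 8 h no member passed with limma or voom and none had an unadjusted p under 0.05, where 0% of all genes were called higher and 0% lower (810 of 13722 at an unadjusted p under 0.05).

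Interferon relays and loading genes were counted in the same comparisons of KO with WT. The shares of all genes called lower there were 6.88% at 0 h, 13.4% at 2 h, 16.7% at 2 h with amyloid-beta, 9.01% at 8 h and 11.7% at 8 h with it. Those called higher were 13.8%, 18.8%, 22.2%, 18% and 22% in the same order. Of 11 relays, 9 were lower at 2 h and 9 at 2 h with amyloid-beta, where Irf7 stood at -3.03 ± 0.25 and Stat2 at -1.41 ± 0.13. At 0 h 3 were lower and 1 higher, at 8 h 4 and 1, and at 8 h with amyloid-beta 3 and 0. Of 8 loading genes none was called at 0 h, 3 were lower at 2 h, 6 at 2 h with amyloid-beta, 2 at 8 h and 1 at 8 h with it. B2m stood at -1.13 ± 0.12 and Tap1 at -1.01 ± 0.12 at 2 h with amyloid-beta. Of the 24 proteasome partners, 15 were lower and 2 higher over all conditions, beside 29.1% and 30.3% of all genes.

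Cell type markers differed between the labels, but not in every list and condition. Summed microglial markers overlapped between genotypes at 0 h and at 8 h without amyloid-beta. Fewer cells of a type and less RNA per cell cannot be told apart in bulk libraries, and this holds for all the results above. The summed signal of 10 microglial markers at 2 h was 81788 to 99546 in WT and 48975 to 63430 in KO, and with amyloid-beta 83825 to 102750 and 41536 to 50925. Its log2 difference of KO from WT was -0.06 at 0 h, -0.73 at 2 h, -1.0 at 2 h with amyloid-beta, -0.17 at 8 h and -0.41 at 8 h with it. The immunoproteasome medians in the same order were -0.15, -0.59, -0.84, -0.29 and -0.38. From 0 h to 2 h in WT the marker sum was higher by 0.58, without overlap, and the immunoproteasome median was 0.41. The markers did not move as 1 block: at 2 h 5 of 10 were lower and 1 higher in KO, at 2 h with amyloid-beta 6 and 0, and at 0 h 2 and 7.

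The genes were also set against the marker sum of the same library, a measure chosen after the data were seen. On it the KO and WT groups of Psmb8, Psmb9, Psmb10 and Psme1 overlapped at 2 h with and without amyloid-beta. The 5 genes then differed by 0.10 to 0.34 at 2 h and by -0.19 to 0.44 at 2 h with amyloid-beta (log2), of which Psme2 did not overlap in either. At 8 h with amyloid-beta Psmb9 (-0.11), Psmb10 (0.33) and Psme2 (0.23) did not overlap, nor did Psmb9 at 8 h without it (-0.23). The share of all genes that do not overlap on this measure was not counted, so these separations cannot be called particular to the members. From 0 h to 2 h in WT, Psmb9 stood at 0.25 on this measure without overlap, and the other 4 lay below 0, down to -0.29 for Psme1, which did not overlap either. Psmb5, on the same measure, was higher in KO by 0.50 at 2 h and by 0.84 at 2 h with amyloid-beta, without overlap. Psmb7 was higher by 0.45 and 0.60 in the same order, without overlap. Psmb6 was higher by 0.095 at 2 h, with overlap, and by 0.46 at 2 h with amyloid-beta, without. All 10 astrocyte markers were higher in KO libraries in each of the 5 conditions, with a summed signal of 1298 to 3923 in WT and 11515 to 28826 in KO. Summed oligodendrocyte lineage markers were at 2491 to 5662 and 6482 to 10717, but the list split: over all conditions 6 of 10 were higher in KO and 3 lower. The 8 neuron markers in the file summed to 543 to 951 and 1087 to 1811, with 4 higher and 4 lower over all conditions (median -0.14). The 7 fibroblast and vascular markers in the file summed to 573 to 1781 and 1070 to 1797, which overlap, with 3 higher and 2 lower. Of 9 lymphocyte and neutrophil markers 1 was in the file, at the floor in all libraries but 1, a WT library at 2 h with 49.2. The part of these markers in the results was not tested.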

How the data were processed

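RNA-seq was done on 30 libraries of primary mouse microglia, in 10 groups of 3 taken from the labels. The deposited signal is 1 value per gene and library; the values show that the authors divided gene counts by a size factor per library and set values below 1 to 1. HISAT 0.1.5, Partek 6.6, R 3.0.2, DESeq2 and mm10 are named in the submitters' processing notes, without roles; the counting program and annotation are not given in the sources used here. Values are whole multiples of 1 step per library, within a tolerance of 0.05 reads, in 100% of values up to 5000 reads, which gave the reads; 1.08% of values lie at the floor. Depth ran from 4227019 to 48509985 reads.

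Values were tested as log2(value + 1) with limma 3.58.1 (R 4.3.3, trend), with 1 mean per group over all 30 libraries (20 residual degrees of freedom), for genes at 10 or more in at least 3 libraries. Fold changes are on that scale, which understates changes of low genes. P-values were adjusted by Benjamini-Hochberg over 13722 genes in each of 18 comparisons, at a threshold of 0.05. Intervals are 95% intervals of limma, not adjusted. The steps were tested on simulated data. Members, lists and comparisons were chosen with earlier results of these data known. Named in each comparison were the 5 immunoproteasome genes, Psmb5, Psmb6 and Psmb7, and up to 4 members in each direction with the widest change past the threshold, plus Psme3, Psme4, Psmf1, Psmg1 to Psmg4 and Psmc3ip once; from each list up to 3 genes. Values of Psma8, Psmd1, Psmd11 and Psme2b were chosen after they were seen, as were the libraries described as standing apart. Alternatives were a pseudocount of 10, other filters, TMM factors, quantile normalization, only the groups compared and leaving out each library; voom on the recovered reads was added after the data were seen. Gene positions and exon lengths are from GENCODE M21 on GRCm38, promoter windows from RefSeq (41 of 49 members matched). Figures were drawn with matplotlib 3.10.9. Values of some single genes of the lists are not reported here.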

Additional observations from a re-analysis of the deposited data

How the results depend on the processing

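Counts of members called in the 18 comparisons stayed within 1.5 times of the value given with TMM factors, pseudocount 10, no filter and a filter at 50. Fitting only the groups compared gave 0 calls for 2 h in WT and 0 for 8 h in KO, against 1 each, and for KO against WT 7 at 2 h, 9 at 2 h with amyloid-beta, 2 at 8 h and 18 at 8 h with amyloid-beta (16, 17, 4 and 11 in the fit reported). Quantile normalization gave 6 at 8 h with amyloid-beta and 2 for 8 h in KO. Voom on the recovered reads, added after the data were seen, gave 10, 10 and 5 at 2 h, 2 h with amyloid-beta and 8 h with amyloid-beta, 16 over all conditions (32 reported) and 2 for 8 h in KO. Leaving out 1 library gave 0 to 5 calls for 2 h in WT, 1 to 3 for KO against WT at 0 h, 5 to 31 at 2 h, 12 to 32 at 2 h with amyloid-beta, 1 to 4 at 8 h, 5 to 9 at 8 h with amyloid-beta and 31 to 38 over all conditions. The cause of these moves was not tested. Fits with fewer libraries also have fewer degrees of freedom, and the shares of all genes called in them are not given here. Moves of these counts therefore cannot be called particular to the members. The 10 comparisons with 0 calls had 0 in every alternative. Of 2486 values of named members under alternatives none that was called reversed, 87 lost their call and 18 gained one. The 18 differences in partner ratios moved by less than 1 SD with a pseudocount of 10. Leaving out 1 of 3 libraries cannot move such a difference by 1 SD of these groups, so those alternatives are no test by that rule. Without 1 library, KO minus WT at 2 h with amyloid-beta ran from -1.02 to -0.75 for Psmb8 to Psmb5 and from -0.80 to -0.56 for Psmb9 to Psmb6. For Psmb10 to Psmb7 it ran from -0.47 to -0.38. Some differences near 0 changed sign, such as Psmb9 to Psmb6 at 2 h (-0.08 to 0.16). A count test on the recovered reads was not run because the floor hides low reads. No paired analysis was possible because the labels give no replicate numbers shared between groups. Psma8, at 5.71 to 22.7, is the member that depth limits most.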
